A study of Drosophila melanogaster with 2 samples.

Results

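The genes described here encode 4 sequence-specific factors that act at closed or newly opened chromatin in the fly embryo: zld, Clamp, grh and Trl. They were taken as a named set, 4 of 13945 protein-coding genes, and every summit of the pooled peak list in the gene body or within 5 kb of it was collected. This gave 9 of the 3354 pooled summits, 5 at Trl, 4 at grh and 0 at zld and Clamp. The data are chromatin immunoprecipitation with sequencing (ChIP-seq) of Nf-YA, the subunit of the trimeric factor NF-Y that contacts the CCAAT box. Embryos of the Drosophila melanogaster strain Nf-YA-GFP, collected between 0 and 24 h of development and used whole, expressed an Nf-YA-eGFP fusion that was precipitated through its green fluorescent tag. There was 1 group of 2 biological replicates. Whole embryos of mixed age were used, so a site occupied in few cells and a site occupied weakly in many cannot be told apart.

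Pioneer factors bind their sites in DNA that is wrapped in nucleosomes and make it accessible to other proteins. Zelda, the product of zld, is the maternally supplied zinc-finger factor that prepares the early zygotic genes for transcription. GAGA factor, the product of Trl, is a BTB zinc-finger protein that binds GA repeats and recruits nucleosome remodellers, and CLAMP, the product of Clamp, binds GA repeats as well and guides dosage compensation to the male X chromosome. Grainy head, the product of grh, opens enhancers of epithelial and epidermal genes. Mammalian NF-Y is itself described as a factor that keeps promoters open.

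Of the 5 Trl summits 2 had the CCAAT box that NF-Y reads within 50 bp, beside 19.5% of all pooled summits. They were the tallest and the one at 14756206. With 5 windows this count is not a result about Trl. The Trl summits at 14757190 and 14762445, which also held no CCAAT, are not shown. The windows below reach 50 bp to each side of a pooled summit, come from the reference sequence of arm 3L in dm6 coordinates and are written 5′ to 3′ on the minus strand, which is the coding strand of Trl. Capitals mark CCAAT or TATAAA on either strand, so ATTGG is the CCAAT box read on the other strand. Likewise TTTATA is the TATA form read on the other strand. The upper window belongs to the tallest summit, the middle one to a summit in the intron after the 3 downstream start sites, and the lower one to the lowest Trl summit, which held no CCAAT.
Trl summit 14759500, chr3L:14759450-14759550: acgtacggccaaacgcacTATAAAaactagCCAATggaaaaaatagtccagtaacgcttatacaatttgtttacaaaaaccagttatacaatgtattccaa
Trl summit 14756206, chr3L:14756156-14756256: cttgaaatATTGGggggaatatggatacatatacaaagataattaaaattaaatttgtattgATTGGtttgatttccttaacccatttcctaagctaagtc
Trl summit 14758284, chr3L:14758234-14758334: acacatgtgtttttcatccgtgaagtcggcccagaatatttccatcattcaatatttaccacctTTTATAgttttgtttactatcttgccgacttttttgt

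Trl had the most pooled summits of the 4 genes, and the tallest. In the own list of replicate 1 it did not lead by count, with 3 summits at Trl and 3 at grh. Trl lies on 3L from 14747929 to 14761049 on the minus strand and spans 13.1 kb. It has 10 transcripts from 4 start sites, at 14757336, 14757779, 14757962 and 14761049. Its 5 summits correspond to 0.216 summits per kb of the searched window of 23.1 kb, beside 0.0251 per kb over the arms analysed. Of all protein-coding genes, 86 (0.617%) had at least 5 summits by the same rule, and long genes have larger windows. Peak signal below is the authors' own value. Its scale is not given, so it serves here to order peaks within a list.

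The tallest Trl summit, at 14759500 in a peak from 14759373 to 14759631, had a pooled signal of 533. It ranked 45 of 3354, in the top 1.34% of the list, where the median signal was 87.4. The ranked list of replicate 1 gave it 201 (rank 61 of 96038) and that of replicate 2 gave 330 (rank 36 of 116026). It was therefore near the top of each list, and it passed the threshold in each replicate. The summit lay in an intron of the transcript that starts at 14761049, the only 1 of the 10 to cover it, and 1.549 kb downstream of that start. It was nearly as far, 1538 bp upstream, from the start site at 14757962. That start site is shared with CG42507, an annotated gene that overlaps Trl on the same strand, so the files do not say which of the genes the summit belongs to. A summit at least this tall lay in the window of 131 protein-coding genes (0.939%).

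The other Trl summits flanked the 3 downstream start sites and the upstream end of the gene. The summit at 14757190 lay in a 5′ untranslated exon, 146 bp downstream of the start site at 14757336. Its pooled signal was 172, with 80.1 in replicate 1 and 89.5 in replicate 2, and it passed the threshold in each. The summit at 14756206 lay in an intron 1130 bp downstream of the same start site. Its pooled signal was 108, with 32.7 in replicate 1, where it did not pass, and 75.9 in replicate 2, where it did. The summit at 14758284, 322 bp upstream of the start site shared with CG42507, had a pooled signal of 62.8, with 27.9 and 30.3 in replicates 1 and 2. It overlapped a thresholded peak in neither replicate and so entered the pooled list without one. The summit at 14762445 was outside the gene, 1396 bp upstream of its first start site, with a pooled signal of 76.4 and 39.8 and 40.4 in the replicates. It also passed in neither. This summit was nearer to another gene, 417 bp from the start site of Mgat4a, which encodes an N-acetylglucosaminyltransferase, and 601 bp from that of Tsen34, which encodes a subunit of the tRNA splicing endonuclease.

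**Figure D1:**
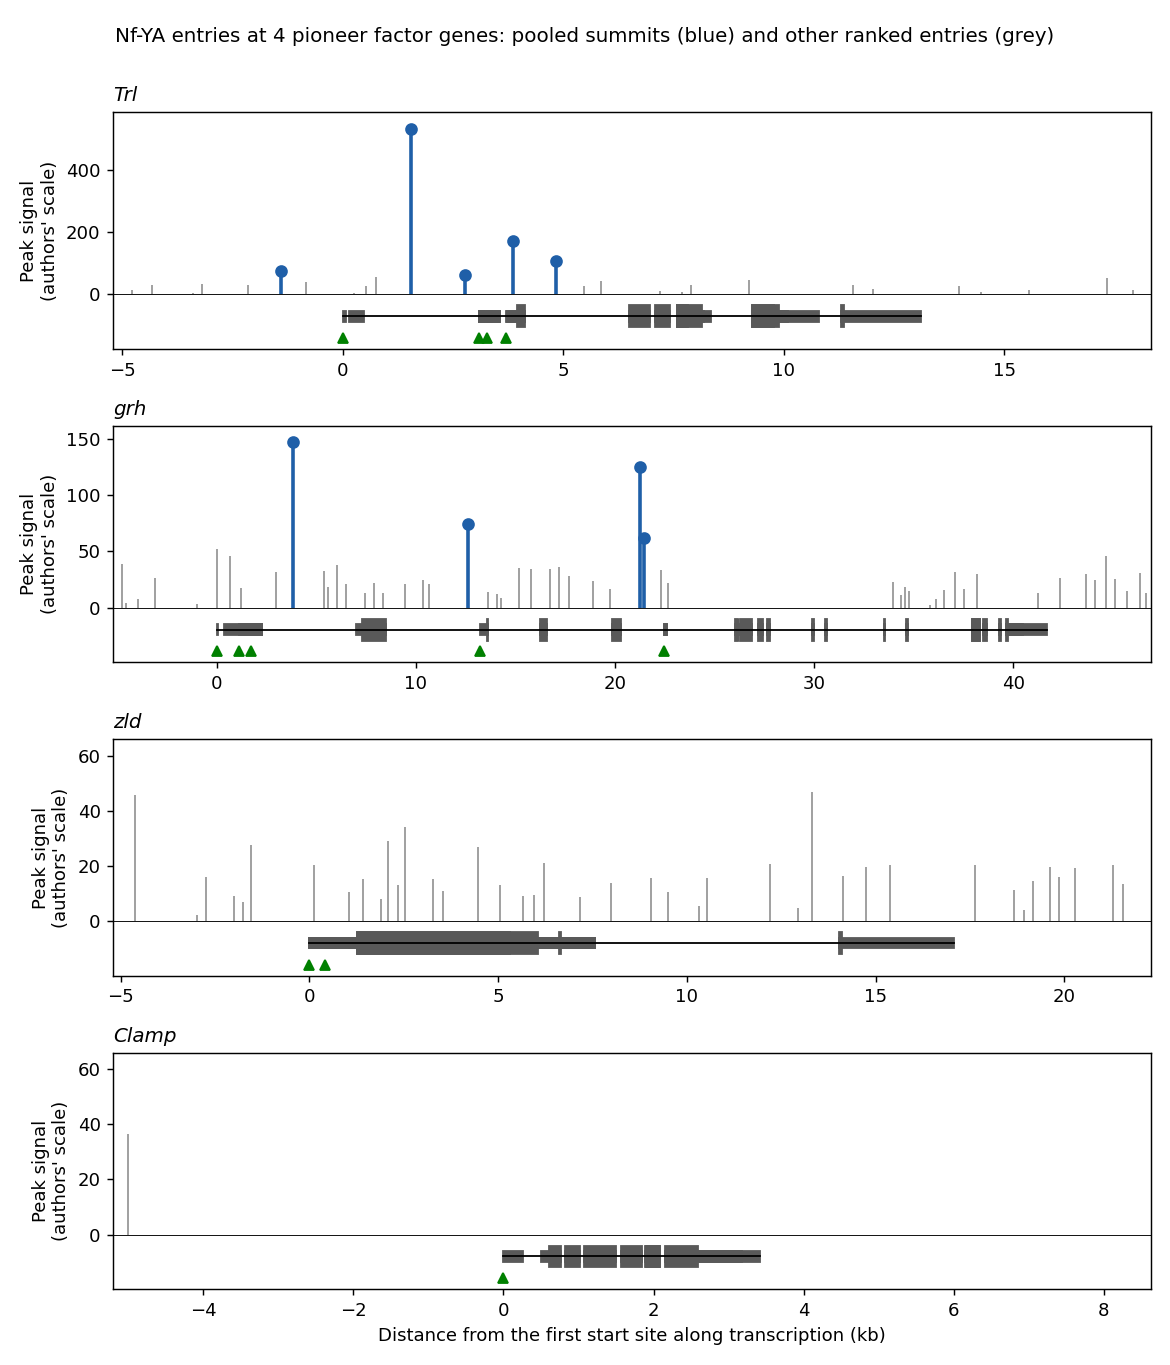
Peak signal (y axis, authors' scale) of entries in the pooled lists against the distance in kb from the first start site along transcription (x axis), with exons as thin and coding exons as thick boxes and start sites as green triangles. Blue stems are the pooled summits, 5 at Trl and 4 at grh, and grey stems are ranked entries below the threshold, the only kind at zld and Clamp. The y axis differs between panels.

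Grainy head, in contrast to Trl, had no summit at a start site, and its summits lay inside the gene. The gene grh spans 41.7 kb on 2R, from 17801132 to 17842820 on the plus strand, with 8 transcripts from 5 start sites. It held 4 summits, all intronic, or 0.0774 per kb of its window of 51.7 kb. At least 4 summits were found for 241 protein-coding genes (1.73%), while the median length of a protein-coding gene was 2.17 kb. The tallest, at 17804958, was 2091 bp downstream of the start site at 17802867 and had a pooled signal of 147 (rank 706). Replicate 1 gave it 68.3 and replicate 2 gave 80, and it passed in each.

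The other 3 summits of grh lay upstream of its internal start sites. The summit at 17822369 was 1196 bp upstream of the start site at 17823565, with a pooled signal of 125 and 53.3 and 69.1 in replicates 1 and 2. Its peak overlapped that of the summit at 17822571, 994 bp upstream of the same start site, with a pooled signal of 62.4 and 24.3 and 32 in the replicates. The thresholded replicate peaks in this pair had their summits at 17822356 and 17822389, near the taller of the pair, so the lower summit overlapped a peak that belongs to its neighbour. The summit at 17813728 was 616 bp upstream of the start site at 17814344, with a pooled signal of 74.4. It reached 42.1 in replicate 1, where it passed, and 36.1 in replicate 2, where it did not. The distances of 616 and 994 bp are the nearest to the 500 bp limit from outside, and 322 bp at Trl is the nearest from inside.

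**Figure D2:**
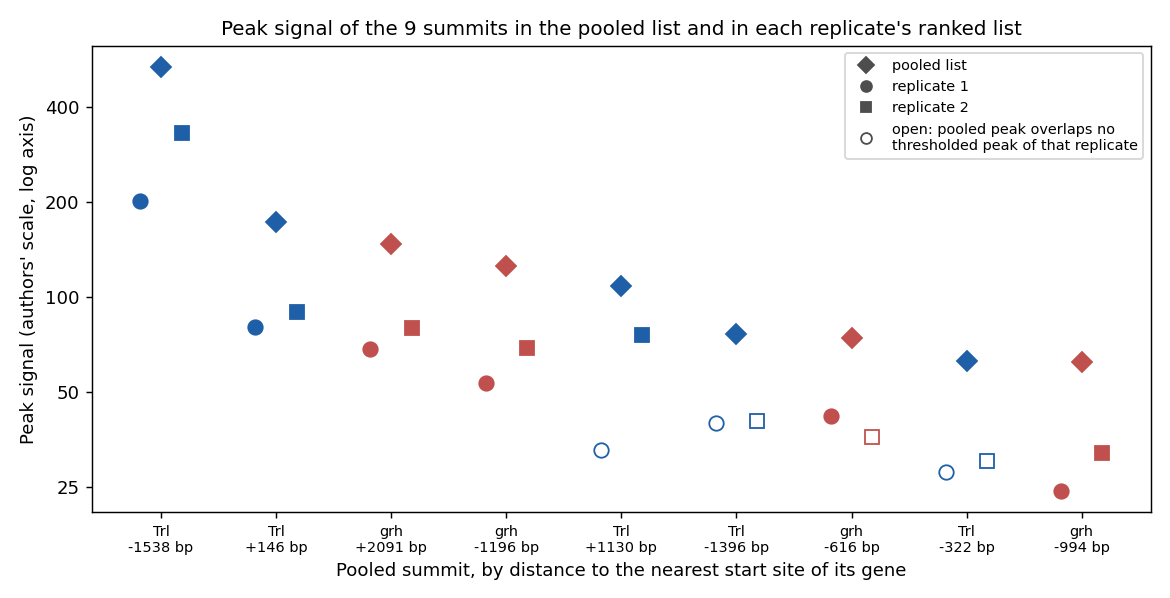
Peak signal (y axis, authors' scale, log axis) of the 9 summits at Trl (blue) and grh (red) in the pooled list (diamonds), replicate 1 (circles) and replicate 2 (squares), ordered by pooled signal, with the signed distance to the nearest start site of the gene below (minus means upstream). The Trl summit 1538 bp upstream stands above the others in every list, and open symbols mark a replicate in which the pooled peak overlapped no thresholded peak.

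Each of the 9 peaks had an entry in the ranked list of either replicate. By an overlap of at least 1 bp, 5 of the 9 overlapped a thresholded peak in each replicate, beside 40.5% of all pooled peaks, and 2 overlapped one in neither. One of the 5 is the lower grh summit of the pair described above, and the count was 4 when the replicate's summit had to lie inside the pooled peak or when the overlap had to reach 50% of it. The tallest summit of each gene in the pooled list was also the tallest of that gene in the ranked list of each replicate. The own thresholded lists were shorter, with 6 summits in these loci in replicate 1 (3 at Trl, 3 at grh) and 5 in replicate 2 (3 at Trl, 2 at grh). One of the 3 at Trl in replicate 1, at 14757342, had a signal of 4.96 and lay beside the taller peak at 14757143.

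**Figure D3:**
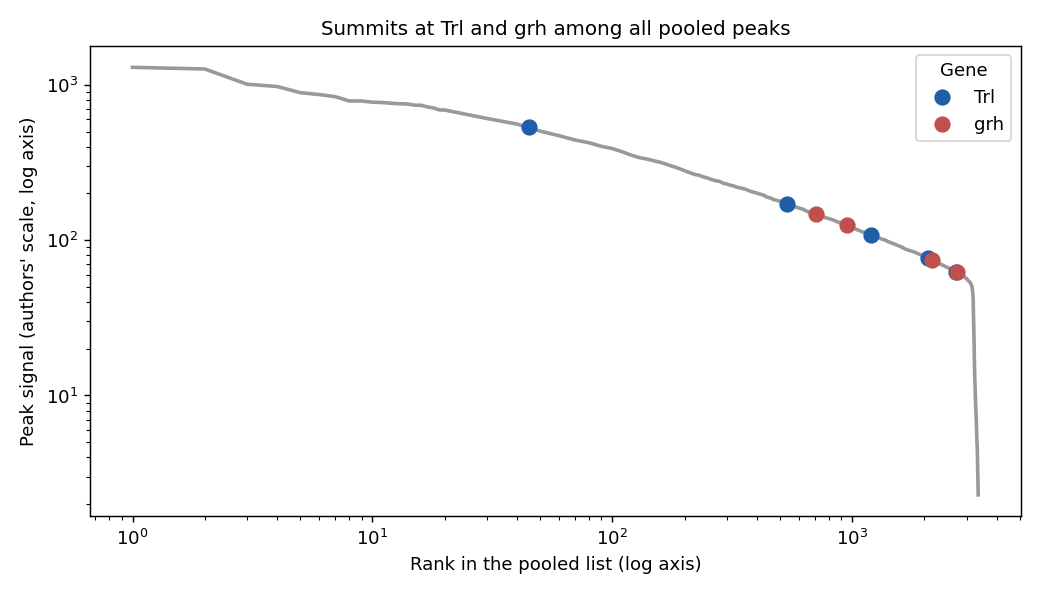
Peak signal (y axis, authors' scale, log axis) of all pooled peaks against their rank in the pooled list (x axis, log axis; grey line), with the summits at Trl (blue) and grh (red). The tallest Trl summit is at rank 45, and the other 8 lie between rank 536 and rank 2724, where the lowest Trl and grh summits (62.8 and 62.4) nearly coincide.

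No summit lay at zld or Clamp. The gene zld lies on X from 19766465 to 19783548 on the minus strand, spans 17.1 kb and has 2 start sites. The nearest pooled summit, at 19744378 with a signal of 62, was 22087 bp beyond the 3′ end of the gene. Clamp lies on 2L from 22165720 to 22169143 on the minus strand, spans 3.42 kb and has 1 start site, and its nearest summit, at 22024615 with a signal of 256, was 141105 bp away. The own thresholded list of each replicate and the conservative list held 0 summits in either window as well. For grh and Trl the nearest summits beyond the 5 kb limit were 12186 bp (signal 86.6) and 15187 bp (signal 55.2) outside the gene, so no summit lay close to that limit at any of the 4 genes.

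The ranked lists, which keep entries far below the threshold, separated zld from Clamp. Around zld the ranked list of the whole series held 41 entries, or 1.51 per kb, beside 1.02 per kb over the arms. The highest was an intronic entry at 19770240 with a signal of 46.8. Its deposited score, which rises to 1000 as the irreproducible discovery rate falls, was 682, while the lowest score of the pooled thresholded list was 830. The entry had 19 in replicate 1 (score 46, rank 13688 of 96038) and 34.8 in replicate 2 (score 528, rank 3585 of 116026). It thus ranked higher in replicate 2. Around Clamp the same list held 1 entry, or 0.0745 per kb, at 22174140 and 4997 bp upstream of the start site, just inside the window. Its signal was 36.5 (score 453), with 15.1 and 25 in the replicates. The ranked list of replicate 1 held 3 further entries there, among them one 200 bp upstream of the start site with a signal of 7.27 and a score of 17. At most 1 ranked entry was found for 464 protein-coding genes (3.33%). Within 50 kb to each side of Clamp there were 0.319 entries per kb, against 1.15 at zld, 1.1 at grh and 1.14 at Trl. Read depth and mappability were not analysed here, and their part in the low number of entries at Clamp was not tested.

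At grh and Trl the ranked list also held entries that missed the pooled threshold. The highest at grh was at its first start site, at 17801134 and 2 bp downstream, with a signal of 51.9, a score of 675 and 28.3 and 26.8 in the replicates. The highest at Trl was at 14760299 in an intron, 750 bp downstream of the first start site, with a signal of 55.6 and a score of 227. It was in the conservative thresholded list with a score of 923. The next, at 14743718 downstream of the gene with a signal of 53.6, had a score of 782 in the ranked list and of 863 in the conservative list. The conservative list thus held 7 summits at Trl and 3 at grh.

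A call at a start site was made when a summit lay within 500 bp. By this rule Trl was bound and zld, Clamp and grh were not, 1 of 4, beside 12.5% of all protein-coding genes. A summit in the gene body or within 5 kb was found for 2 of 4, beside 37.5%. With 4 genes neither count is a result about the set. No test was made, because the series has no second group and the genes were named with earlier results of these data known.

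The CCAAT boxes were at 3 of the 9 windows, 2 at Trl and 1 at grh, beside 19.5% of all pooled summits and 17% of windows of the same width at protein-coding start sites. An extended form, CCAAT followed directly by CA, GA, CG or GG, was at 2 of the 9, both at Trl, beside 5.55% of summits and 4.72% of start-site windows. Both Trl windows also held the full NF-Y consensus, which is CCAAT after 2 purines and before C or G and a further purine. That form was added after the windows were seen, and it was at 2.5% of all pooled summits and 1.13% of start-site windows. At the tallest summit the match was AGCCAATGG on the minus strand, from 14759514 to 14759522, with its centre 18 bp from the summit. At the summit at 14756206 it was AACCAATCA on the plus strand, from 14756188 to 14756196, with its centre 14 bp away. The tallest Trl summit was among the 4 tallest of the 84 pooled summits with the full consensus, counting itself, and the median of those 84 was 123.

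Of the other motifs searched, TATAAA was at 2 of the 9 windows, both at Trl, beside 18.3% of summits, and at the tallest summit it lay on the same strand as the CCAAT box, from 14759527 to 14759532. GAGAG, which GAGA factor and CLAMP read, was at 1 window, that of the grh summit at 17822571, beside 13.8%. The Zelda site CAGGTA (2.24% of summits), the Grainy head site AACCGG (2.21%) and the DRE element TATCGATA (0.835%) were at 0 of the 9. Thus 3 of the 9 windows held at least 1 of these other motifs, and 6 did when the windows reached 100 bp to each side. The share of all pooled summits with at least 1 of them was not counted at either width. Neither count is therefore a result about these loci. All were sought on both strands, and a match is a run of letters in the window and no evidence of a factor there. The windows with the consensus at Trl had a GC content of 33.7% and 28.7%, beside a median of 35.6% over all pooled summits.

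Genes that act with these factors were read by the same 500 bp rule from lists that were drawn up with earlier results of these data known. Of 11 other factors and cofactors of zygotic genome activation 8 were bound, beside 12.5% of all protein-coding genes. The pair-rule factor gene opa, also described as a pioneer, had a signal of 1266 (628 in replicate 1 and 626 in replicate 2), and the earlier results already showed it among the tallest peaks. Dref, whose product binds the DRE, had 127 (65 and 58.3), with a start site of another gene nearer to the summit. The gene bcd for the anterior morphogen had 114 (44.8 and 73.2), Stat92E, the JAK/STAT transcription factor gene, had 109 (52.1 and 63), and cad for the posterior homeodomain factor had 101 (51.2 and 47.9). M1BP, whose product binds the core promoter element Motif 1, had 101, with 67.3 in replicate 1 and 26.6 in replicate 2, where it did not pass. The other 2 had signals of 81, which passed in replicate 2 alone, and 65.3, which passed in neither replicate. The list includes dl, nej and fs(1)h, which were not bound.

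Of 14 chromatin partners of GAGA factor 5 were bound, beside 12.5% of all protein-coding genes. The tallest was at brm, the ATPase gene of the Brahma remodeller, with 390 (177 and 209), followed by E(bx), the gene of the largest subunit of the remodeller NURF, with 188 (81.2 and 106). The BTB factor gene lola had 112 (47.4 and 54.5), lolal had 93.2 (39.3 and 53) and dre4, a subunit gene of the histone chaperone FACT, had 79 (48.1 and 34.4). All of these had an entry in each replicate, while lolal passed in replicate 2 alone and dre4 in replicate 1 alone. Of 8 partners of CLAMP in dosage compensation 1 was bound, beside the same 12.5%. That gene, the kinase gene JIL-1, had 54.8 pooled, 9.26 in replicate 1 and 45.9 in replicate 2. It was absent from the own list of replicate 1 and from the conservative list, where 0 of the 8 were bound.

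Of 21 early genes activated with Zelda 4 were bound, beside 12.5% of all protein-coding genes. They were the pair-rule gene eve with 253 (146 and 107), the mesoderm gene twi with 183 (84.1 and 96.7), the pair-rule gene run with 119 (59.4 and 60.1) and the sex-determination gene Sxl with 107 (51.7 and 53.8), and each passed in both replicates. Of 12 epidermal targets of Grainy head 0 were bound, and 1 was bound in the conservative list. A summit in the gene body or within 5 kb was found for 7, beside the 37.5% of all protein-coding genes. By this wider rule the counts were 9 of 11 other factors and cofactors and 11 of 14 partners of GAGA factor. They were 3 of 8 partners of CLAMP and 9 of 21 early genes. Long genes have larger windows, and gene length was not compared between the lists. Over the 5 lists 18 of 66 genes were bound (27.3%), and no list was tested against the 12.5% of all protein-coding genes.

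**Figure D4:**
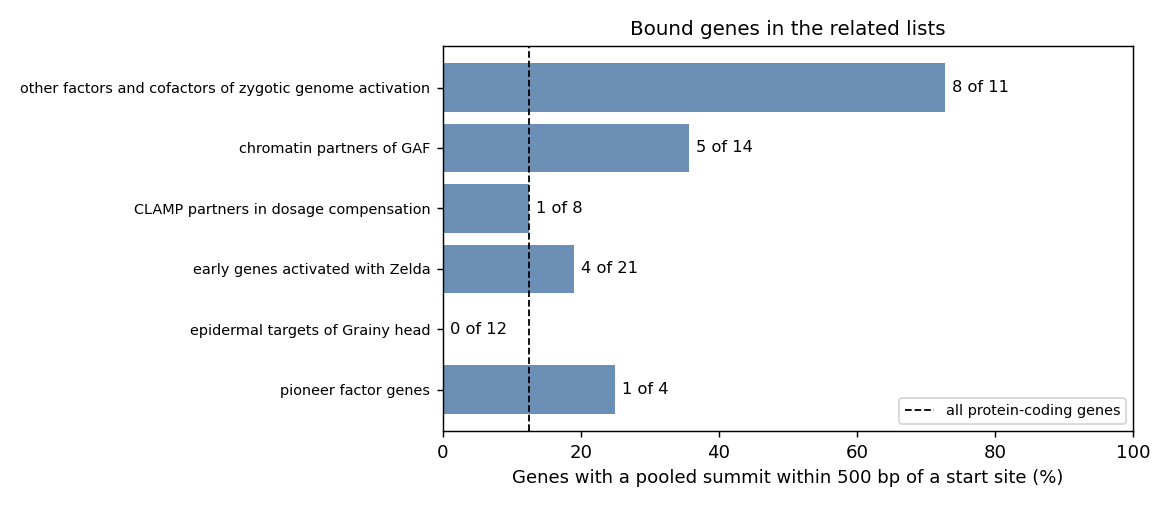
Percent of genes with a pooled summit within 500 bp of a start site (x axis) in each list (y axis), with the counts beside the bars and the 12.5% of all protein-coding genes as a dashed line. The bar for other factors and cofactors of zygotic genome activation reaches 72.7% (8 of 11), that for the 4 pioneer factor genes rests on Trl alone, and that for epidermal targets of Grainy head is at 0.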

How the data were processed

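Per the deposited records, the authors' lists hold peaks on dm6, made from alignments of each replicate or of both. The aligner and peak caller are not given in the sources used here. The deposited signal (column 7) has no stated scale, and the deposited score (column 5) encodes the irreproducible discovery rate. Per the labels, chromatin was sonicated to 200 to 800 bp. Depth is unknown. In the ranked lists made from both replicates, 16 columns of values from unnamed inputs were not used.

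Analysis covered the 6 main arms, with start sites from Ensembl release 115 (BDGP6.54), without transposable elements, and sequence from RefSeq's Release 6 assembly. The entry of a replicate was the overlapping one with the nearest summit. All 66 related genes matched the annotation, 1 through a synonym. Motifs were sought within 50 bp of summits. The members, lists and naming rule (all 4 genes, nearer neighbours, up to 6 bound genes a list by signal) were chosen with earlier results of these data known. Code was tested on simulated data. Python 3.11.15, numpy 2.4.6, pandas 2.3.3 and matplotlib 3.10.9 were used.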

Additional observations from a re-analysis of the deposited data

How the results depend on the processing

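The loci held 9 summits in the pooled list, 10 in the conservative list and 5 in the upper 50% by signal, and the own list of 1 replicate left 5 to 6. Reaches of 0 bp, 2 kb and 10 kb gave 8, 9 and 9. Trl and grh were the genes with a summit, 2 of 4, under all of these. The count of genes bound at a start site was 1 under the 4 other lists and at 250 bp. It rose to 2, with grh added, at 1 kb (2) and 2 kb (2). The 12.5% of all protein-coding genes holds for 500 bp in the pooled list only. No share was counted at the other settings, so the rise is not a result about the 4 genes. Windows of 100 bp each side gave 6 windows with another motif in place of 3. The share of all pooled summits was not counted for this comparison. CCAAT windows ran from 2 to 4. Of 77 alternatives 63 stayed within 1.5 times the reported count or signal. These include the counts of 0 at zld and Clamp, which stayed at 0 in each list. The count at Trl went from 5 to 3 in the upper 50% and in the own list of each replicate, and to 7 in the conservative list. At grh it went from 4 to 2 in the upper 50% and in the own list of replicate 2. It was 3 at grh in the other lists. Depth is unknown, so an absent summit says only that none was listed. No paired analysis was possible because the series has 1 group.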

Other observations

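The full NF-Y consensus was added after the windows were seen, and the counts below were not tested. A pooled summit with the full NF-Y consensus lay in the gene body or within 5 kb of 170 protein-coding genes (1.22%), and at least 2 such summits lay there for 4 genes (0.0287%). These were Trl, its overlapping gene CG42507, its neighbour Tsen34, and chinmo, a BTB zinc-finger gene elsewhere, and the first 3 share the same pair of summits. One of that pair, at 14756206, did not pass in replicate 1, so the own list of replicate 1 held 1 of them. Plain CCAAT was at 2 of the 5 Trl windows, beside 19.5% of all pooled summits.

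The gene psq, whose product is a BTB factor that also binds GA repeats, was picked out after its values were seen. It had 5 pooled summits in the gene body or within 5 kb, as many as Trl, and none within 500 bp of a start site.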
